A study of Mus musculus with 4 samples.

Results

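Broad CTCF peaks are the 1040 autosomal peaks of 2500 bp or more in a joint list of CTCF binding sites from cultured mouse cortical neurons. They were picked by width alone, the distance between the joined start and end, from 33075 peaks on chromosomes 1 to 19, of which they made up 3.14%, and from 33820 peaks in the whole list. The other 32035 autosomal peaks are called narrower peaks. Because width chose the broad peaks, and because every other value of the peak calls comes from the same reads, widths, strengths and summits are described here without a test. Shares carry exact Clopper-Pearson intervals at 95%, which cover counting error only.

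The samples were 2 CTCF immunoprecipitations and 2 inputs, a small portion of each sample set aside before the antibody was added; how the inputs entered peak calling is not given in the sources used here. All came from wild-type Swiss-Webster cortex at embryonic day 16, grown as neurons for 13 days and left untreated, although the culture text of the labels mentions etoposide. Each replicate held about 15 M cells, and sonicated DNA measured 200 to 500 bp. A peak list gives no expression values, so the cell type named in the labels could not be checked against its markers, and whether other cells of the culture add to the peaks was not tested.

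CTCF is a zinc finger protein that contacts a long GC-rich motif and holds cohesin in place at the feet of chromatin loops. It sits at domain borders, at many promoters and, in neurons, at promoters that choose among clustered protocadherin isoforms. A bound motif is far shorter than a sonicated fragment, so a CTCF site usually gives a narrow peak with its summit over the motif.

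The sequences below show what broad peaks covered at gene starts. The first 4 are promoters under a broad peak that hold the CTCF core on either strand, in capitals. The core searched was CCA, any 2 bases, AG, any 2 bases, GGC. Palm, Bola2 and Rpl38 are named by the rule given with the methods, and Cebpb was picked after its values were seen because both of its replicate summits lie near the motif. The other 2 are promoters of the activity-regulated genes Nr4a3 and Gadd45g, which lack the core in these bases and have their CpG pairs in capitals. All are the 250 bases before the gene start, read 5′ to 3′ on the gene's strand, from RefSeq (GRCm38.p6).
Palm (chr10:79793322-79793571, plus strand): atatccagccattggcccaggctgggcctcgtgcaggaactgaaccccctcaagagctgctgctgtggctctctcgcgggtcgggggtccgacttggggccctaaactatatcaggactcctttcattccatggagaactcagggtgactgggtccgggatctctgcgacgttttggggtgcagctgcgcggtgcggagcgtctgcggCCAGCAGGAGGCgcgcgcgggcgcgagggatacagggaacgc
Bola2 (chr7:126695750-126695999, plus strand): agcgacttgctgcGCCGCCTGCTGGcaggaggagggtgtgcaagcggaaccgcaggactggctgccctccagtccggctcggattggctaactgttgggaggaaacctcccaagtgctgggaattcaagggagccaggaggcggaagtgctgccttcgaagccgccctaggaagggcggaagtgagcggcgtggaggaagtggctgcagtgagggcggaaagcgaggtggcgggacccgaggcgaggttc
Rpl38 (chr11:114668330-114668579, plus strand): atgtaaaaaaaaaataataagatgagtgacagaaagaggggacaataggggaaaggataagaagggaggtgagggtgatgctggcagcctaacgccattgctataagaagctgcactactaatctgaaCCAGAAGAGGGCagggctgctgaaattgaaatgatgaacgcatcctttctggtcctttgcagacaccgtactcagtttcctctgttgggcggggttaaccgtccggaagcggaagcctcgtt
Cebpb (chr2:167688665-167688914, plus strand): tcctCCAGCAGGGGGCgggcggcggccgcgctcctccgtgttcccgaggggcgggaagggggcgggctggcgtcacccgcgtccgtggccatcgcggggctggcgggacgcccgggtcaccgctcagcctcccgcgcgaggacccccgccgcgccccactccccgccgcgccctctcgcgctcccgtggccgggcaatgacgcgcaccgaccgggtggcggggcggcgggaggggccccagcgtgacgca
Nr4a3 (chr4:48045055-48045304, plus strand): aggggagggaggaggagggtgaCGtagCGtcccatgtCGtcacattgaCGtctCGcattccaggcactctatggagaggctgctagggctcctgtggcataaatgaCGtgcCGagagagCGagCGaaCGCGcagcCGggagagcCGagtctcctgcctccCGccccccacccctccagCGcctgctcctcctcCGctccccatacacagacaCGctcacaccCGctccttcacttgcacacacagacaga
Gadd45g (chr13:51846425-51846674, plus strand): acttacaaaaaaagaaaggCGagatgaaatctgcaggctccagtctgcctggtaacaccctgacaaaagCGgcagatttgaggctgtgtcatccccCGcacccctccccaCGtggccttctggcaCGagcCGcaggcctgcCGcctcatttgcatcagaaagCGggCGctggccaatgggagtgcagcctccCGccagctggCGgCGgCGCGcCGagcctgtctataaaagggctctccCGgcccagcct
In Palm, Rpl38 and Cebpb the core runs along the gene's strand, and in Bola2 it is read on the opposite strand. The centre of the core lay 31.5 bp from the joined summit at Palm, 4.5 bp at Bola2, 16.5 bp at Cebpb and 286.5 bp at Rpl38. At Cebpb it lay 19.5 bp from the first and 13.5 bp from the second replicate summit. At Bola2 the second summit stood 0.5 bp from it, while the first stood 3150.5 bp away, near the other side of the peak. The replicate summits stood 798 bp apart at Palm, 692 bp at Rpl38, 3151 bp at Bola2 and 6 bp at Cebpb, so these 4 loci differed widely in how far the replicates' summits lay from each other.

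Broad peaks had a median width of 2857.5 bp and reached 6943 bp, against 1114 bp and 2499 bp among narrower peaks. The list joins the 2 replicates by union: in all 33820 rows the joined peak ran from the lower replicate start to the higher replicate end. Taken alone, 537 broad peaks (51.6%, 95% interval 48.5% to 54.7%) were at least 2500 bp wide in both replicate columns. A further 168 (16.2%) were so in the first column alone and 260 (25%) in the second alone. The remaining 75 (7.21%) reached 2500 bp only through the union. Replicate intervals overlapped over a median 86.6% of the joined width in broad peaks, against 70.6% in narrower ones. In base pairs, the part not shared by both replicates had a median of 401 bp in broad and 315 bp in narrower peaks, so the share rests on the width that chose the peaks. Broad peaks covered 3.17 Mb, which is 7.76% of the sequence under autosomal peaks.

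Strength is given as the −log10 p of a replicate's peak, and joint strength is the sum of both columns. The columns are not tied to a labelled replicate and their library depth is unknown, so values are set side by side only within the list. Joint strength had a median of 442 in broad peaks, against 163 in narrower ones. The median was 119 in broad against 30.6 in narrower peaks in the first column, and 316 against 127 in the second. The second column was thus the stronger of the pair in 85.2% of broad peaks and in 90.9% of narrower ones, with a median log2 ratio of second over first of 1.05 and 1.93. The global irreproducible discovery rate (IDR), which scores the match between replicates, stood at its cap in 71.9% of broad and 23.7% of narrower peaks. Broad peaks were thus stronger and more often at the IDR cap, and the balance of the columns differed too. The cap does not measure how close the replicate summits lay, which is described next.

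The replicate summits of broad peaks lay a median of 325.5 bp apart (95% interval of the median 282 to 376 bp), against 28 bp (28 to 29 bp) in narrower peaks. They were more than 500 bp apart in 428 broad peaks (41.2%, 38.1% to 44.2%), against 5.80% of narrower peaks. Distances above 1000 bp were met in 295 broad peaks (28.4%) and in 0.949% of narrower ones, many of which are too narrow to allow them. As a percent of the joined width, which bounds it, the distance had a median of 10.7% (9.47% to 12.2%) in broad and 2.65% (2.60% to 2.69%) in narrower peaks. At the near end, 254 broad peaks (24.4%) had summits within 50 bp of each other, against 70.2% of narrower peaks. Broad peaks therefore spread over a wide range, from summits that coincide to summits at opposite ends. The joined summit was the mean of the replicate summits, to within 1 bp, in 28.8% of broad and 86.8% of narrower peaks. Its distance from that mean had a median of 179 bp and an upper quartile of 683 bp in broad peaks, and reached 3479 bp. In narrower peaks both the median and the upper quartile were 0.5 bp. The joined summit of a broad peak can thus lie far from both replicate summits. Whether a replicate's interval holds 1 peak call or several joined calls is not recorded in the list.

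Replicate summits of broad peaks lay mostly on the lower-coordinate side of the peak's midpoint. This was so for 76.2% of broad peaks (73.5% to 78.8%) against 56.2% of narrower ones in the first column, and for 67.1% (64.2% to 70.0%) against 52.4% in the second. The joined summit was near balance, at 49% in broad and 51.0% in narrower peaks. The lower side has no meaning for a gene, since genes lie on either strand, and in the first column the share ran from 52.4% at 500 to 750 bp to 80.9% at 3500 to 4000 bp, and was 73.2% in wider peaks. This lean of the summits moves with width, and its part in the distances between summits was not tested.

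**Figure D1:**
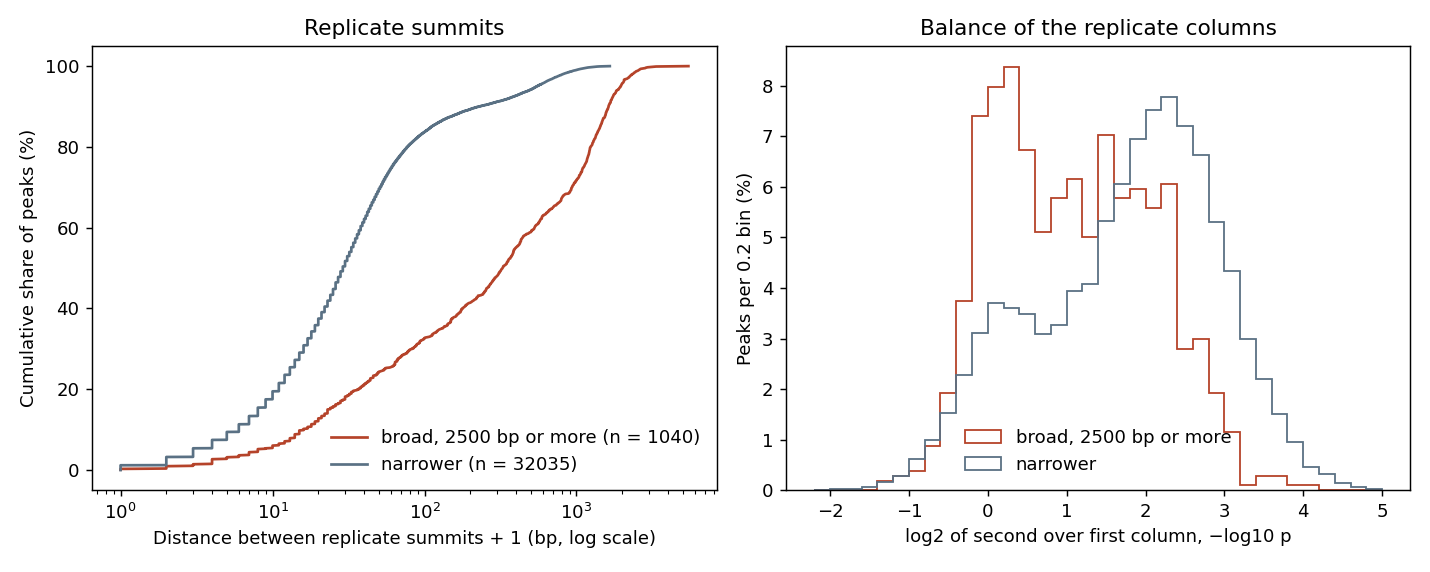
The left plot gives the cumulative share of peaks (%) against the distance between replicate summits plus 1 (bp, log scale), and the right plot the share of peaks in each bin of the log2 ratio of the second over the first column's −log10 p. Broad peaks (red, n = 1040) run to the right of narrower peaks (blue, n = 32035) on the left and have a median log2 ratio of 1.05 against 1.93 on the right.

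Position was taken from the joined summit and RefSeq genes (GRCm38.p6), a table without exons or transcripts. The joined summit of 345 broad peaks, 33.2% (30.3% to 36.1%), lay within 1 kb of an end of a protein-coding gene, against 17.6% (17.2% to 18.03%) of narrower peaks, where the share over all autosomal peaks was 18.1%. A further 445 broad peaks (42.8%) lay elsewhere inside a protein-coding gene, against 43.8% of narrower peaks. Other genes, such as long noncoding RNAs, accounted for 69 broad peaks (6.63%) and 8.58% of narrower ones. The remaining 181 (17.4%) were intergenic, against 30.1%. Broad peaks thus lay more often at gene ends and less often between genes than narrower peaks did, while the share inside genes was about the same. With the replicate summits in place of the joined one, 30.3% (first) and 32.2% (second) of broad peaks lay at gene ends, against 17.5% and 17.4% of narrower ones.

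The share at gene ends climbed with width below the threshold and then levelled off. It was 10.6% under 500 bp, 15.4% at 1000 to 1250 bp, 31.0% at 1750 to 2000 bp and 34.8% at 2000 to 2250 bp. Above the threshold it was 34.4% at 2500 to 2750 bp, 37.5% at 2750 to 3000 bp, 31.1% at 3000 to 3500 bp, 27.7% at 3500 to 4000 bp and 26.8% above, where 71 peaks gave an interval of 16.9% to 38.6%. The threshold of 2500 bp marks no step in this series, and peaks of 2000 to 2500 bp resembled the broad ones in position.

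**Figure D2:**
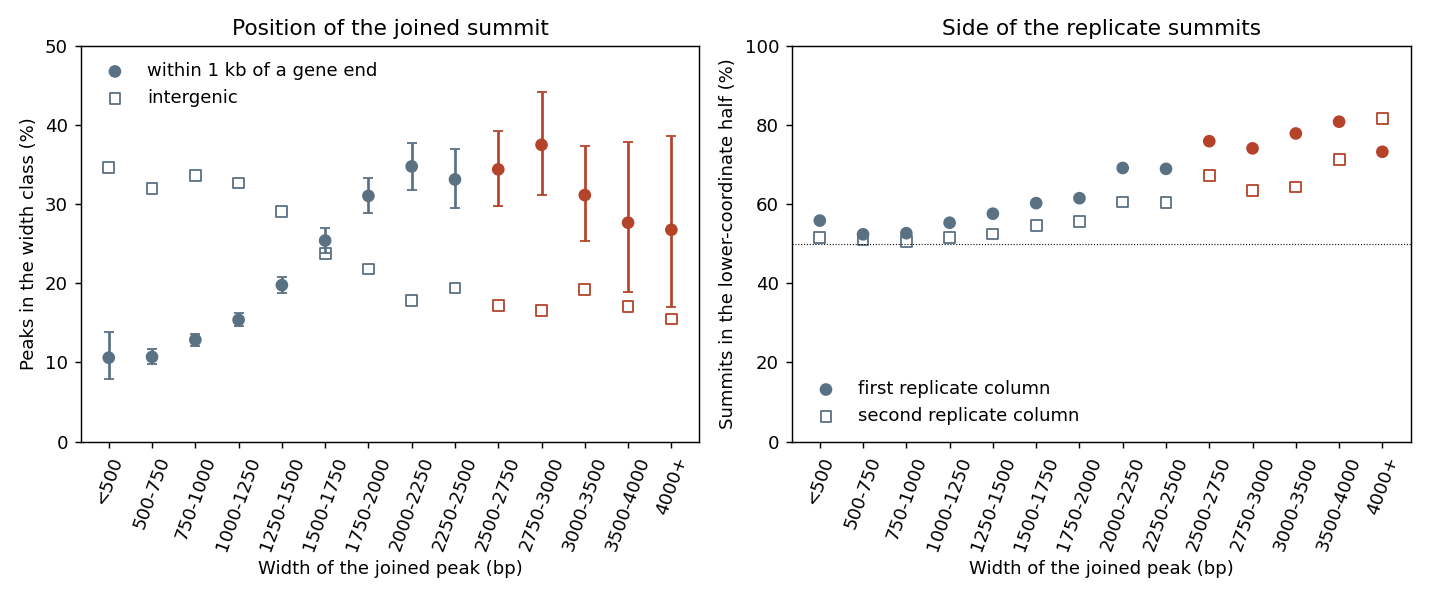
The left plot gives, by width of the joined peak (bp), the share of peaks (%) with the joined summit within 1 kb of a protein-coding gene end (filled circles, bars are exact 95% intervals) or intergenic (open squares), and the right plot the share with the replicate summit on the lower-coordinate side of the midpoint (filled circles, first column; open squares, second). Red marks peaks of 2500 bp or more: gene ends stand at 34.8% at 2000 to 2250 bp, are highest at 37.5% at 2750 to 3000 bp and stand at 26.8% in the widest class, while the lean of the first summit reaches 80.9% at 3500 to 4000 bp.

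The share at gene ends was also higher in broad peaks within each quartile of joint strength, although in the weakest the interval reaches the value of narrower peaks. In the weakest quartile 12 of 32 broad peaks (37.5%, 21.1% to 56.3%) lay at gene ends, against 21.2% of narrower ones. In the next it was 52 of 100 (52.0%, 41.8% to 62.1%) against 15.2%, and in the one above 58 of 196 (29.6%, 23.3% to 36.5%) against 12.2%. In the strongest quartile, which held 712 of the broad peaks, 223 (31.3%, 27.9% to 34.9%) lay at gene ends, against 22.1%. Summits were also far apart at every strength, with medians of 306.5 to 394 bp in broad peaks against 20 to 40 bp in narrower ones.

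The balance of the columns also differed by position. At gene ends the median log2 ratio of second over first was 0.54 in broad and 0.39 in narrower peaks, close to even. In intergenic sequence it was 1.74 and 2.27, and inside protein-coding genes 1.04 and 1.97. Gene-end peaks as a class were more even between the columns, whatever their width. Replicate summits more than 500 bp apart made up 38.0% of broad peaks at gene ends, 41.8% inside genes and 44.8% between genes, against 9.40%, 5.30% and 4.47% of narrower ones, so the wide spacing of summits in broad peaks was met in each class.

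Strand is known for 79.6% of autosomal protein-coding genes, those with a sequence in the RefSeq promoter table. Of the 345 broad peaks at gene ends, 217 (62.9%) lay within 1 kb of a known start, against 65.3% of narrower gene-end peaks. Another 44 (12.8%) lay near a known finish and no start, against 14.8%, and 84 (24.3%) were at genes with no strand, against 20.0%. Among peaks inside genes, 61 of 445 broad ones (13.7%) lay within 1 kb of a further start listed for a gene, against 5.28% of narrower ones. By the joined summit, broad gene-end peaks were therefore split between known starts and known finishes much as narrower ones were.

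A broad peak has more bases with which to cover a gene end, and 501 (48.2%) covered at least 1 end of a protein-coding gene, against 14.4% of narrower peaks. Per megabase of peak, broad peaks covered 185 ends, against 136 for narrower ones. For known starts the densities were 110 against 91.1 per megabase, and for known finishes 32.5 against 17.5. As a ratio, then, the densities of broad and narrower peaks differed more at finishes than at starts, while the difference in ends per megabase was larger at starts. A total of 79 broad peaks (7.60%) covered 2 or more ends, against 1.5% of narrower peaks. Over 304 broad peaks with a single known start inside, the peak reached a median 1358.5 bp upstream and 1699 bp downstream of the start, against 647.5 bp and 712.5 bp for 2592 narrower peaks. The downstream arm was the longer in 58.2% of these broad peaks (52.5% to 63.8%) and in 54.7% of the narrower ones. By strand it was the longer in 63.2% of broad peaks at minus-strand genes and 53.0% at plus-strand genes, with overlapping intervals.

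**Figure D3:**
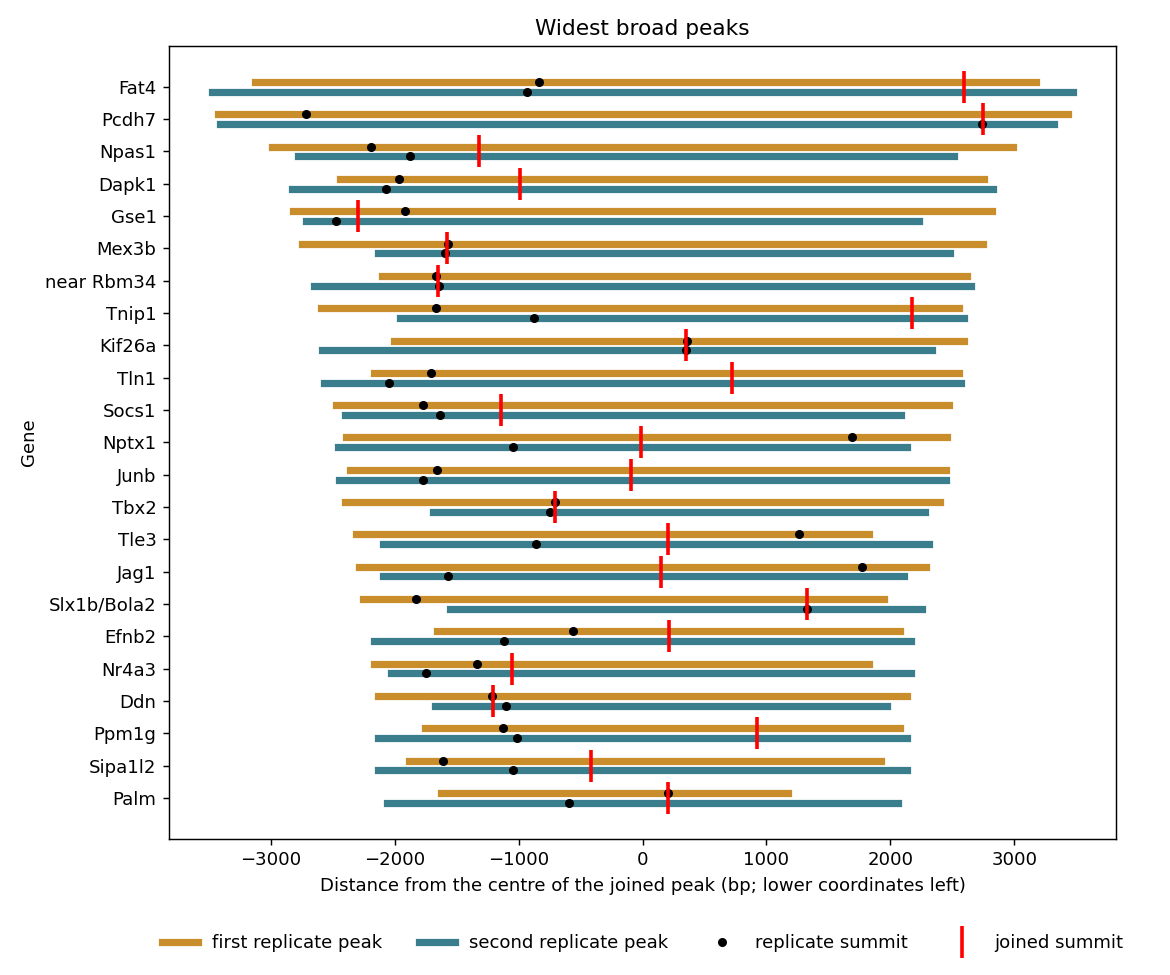
Each row is a broad peak named by gene (the 10 widest and the widest at gene ends), with the first (ochre, upper) and second (teal, lower) replicate interval, the replicate summits (black) and the joined summit (red) by distance in bp from the peak's centre. At Mex3b and Kif26a all summits coincide, while at Pcdh7 the replicate summits stand 5450 bp apart.

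Of the 10 widest broad peaks, 7 had their joined summit inside a protein-coding gene away from its ends. The widest, 6943 bp at chr3:38882232-38889174, covered the start of Fat4, an atypical cadherin, with a −log10 p of 310 in the first and 679 in the second column. The next covered the start of Pcdh7, a protocadherin outside the clusters, at chr5:57713532-57720388, with 813 and 687. Its replicate summits stood 5450 bp apart, the farthest in the list, while those of Fat4 were 92 bp apart. Both replicate summits at Fat4 were far from the joined summit, at 2634 and 2542 bp from the peak's lower edge against 6067 bp. Its place inside the gene therefore rests on the joined summit alone. Npas1, a transcription factor of interneurons, held a peak of 5977 bp inside the gene, and Dapk1, a calmodulin-regulated kinase, held 1 of 5662 bp. A peak of 5644 bp in Gse1, 5495 bp over the start of Mex3b (an RNA-binding protein), 5189 bp in Tnip1 (an inhibitor of NF-κB signalling) and 5179 bp over the start of Kif26a (a kinesin-like protein) followed. The joined summit of the peak at Mex3b was classed at another gene, not a protein-coding one. Of those not yet named, 1 was intergenic, 5294 bp wide and 14534 bp from Rbm34. Another lay at a gene end, 5144 bp over the finish of Tln1, which encodes talin, the link from integrins to actin. Joint strengths of the 10 ran from 402 at Tln1 to 1499 at Pcdh7, against the median of 442 over all broad peaks.

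The widest peaks at gene ends, after that at Tln1, lay at genes with varied products, described here without a test for any group of them. The peak over the start of Jag1, a Notch ligand, spanned 4575 bp at chr2:137113491-137118065, with 201 in the first and 407 in the second column and summits 3341 bp apart. Efnb2, an ephrin ligand, had 4339 bp with 375 and 576, and summits 560 bp apart. Socs1, a brake on cytokine signalling, had 4944 bp with 443 and 551, and the peak also covered both ends of Tnp2. Transcriptional regulators were present too: Tbx2 (a T-box factor) with 4797 bp and Tle3 (a Groucho-type corepressor) with 4621 bp. Genes with neuronal products were Nptx1 (a pentraxin that gathers AMPA receptors) with 4911 bp, Ddn (dendrin, a postsynaptic protein) with 4274 bp and Palm (paralemmin) with 4126 bp. The phosphatase gene Ppm1g had 4270 bp and Sipa1l2 4267 bp. All of these peaks were placed at gene ends by the joined summit, which can lie far from both replicate summits. At Ppm1g it stood 3055 bp from the peak's lower edge, and the replicate summits 1008 and 1119 bp. At Nptx1 and Tle3 the summits stood 2736 and 2125 bp apart, whereas at Tbx2 and Ddn they were 43 and 109 bp apart.

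The 5 strongest broad peaks were not the widest. The peak at an end of Arid3a (an ARID-domain transcription factor), whose joined summit fell to the noncoding gene Gm40715, had 1408 in the first and 1269 in the second column over 4225 bp. Tafa5, a secreted neuropeptide-like protein, had 972 and 1366 over 2740 bp, and AI413582 had 1106 and 1142 over 2709 bp. Ptma (prothymosin alpha) had 671 and 1196 over 4898 bp, and a peak at Gm33628, 34171 bp from Yy1, had 766 and 1052 over 2675 bp. Summits were close at Tafa5 (14 bp) and AI413582 (3 bp) and far apart at Ptma (2299 bp). After Pcdh7 and Jag1, the summits farthest apart were those at Slx1b and Bola2 (3151 bp), at the transcription factor gene Egr4 (2936 bp) and in the kinase gene Sgk1 (2862 bp).

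Just inside the threshold, peaks at Nfix with Lyl1 (2500 bp), Rhou (2500 bp) and Zhx1 (2501 bp) had joint strengths of 284, 838 and 129. Just outside, peaks of 2499 bp near Dclk3, in Rnf123 and in Lemd1 had 854, 367 and 351. Summit distances were 388, 626 and 384 bp inside the threshold, and 1450, 463 and 1166 bp outside it, so values on either side of the threshold overlapped.

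Over all genes, 387 of 20665 autosomal protein-coding genes (1.87%) had a broad peak with its summit within 1 kb of an end, and 6234 (30.2%) had a peak of any width there, so 6.21% of genes with a peak had a broad one. There were 42 broad peaks that served ends of 2 or more genes. Of other genes, 0.474% had a broad peak at an end. The gene lists that follow are read against these shares and were not tested. Their counts at gene ends rest on the joined summit and were not recomputed with the replicate summits.

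Activity-regulated genes, which neurons switch on after synaptic input or depolarization, had a broad peak at an end in 6 of 35 members (17.1%), against 1.87% of all protein-coding genes, and 20 members had a peak of any width. Junb and Jund encode AP-1 subunits, Nr4a3 an orphan nuclear receptor, Gadd45g a stress and demethylation factor, Homer1 a postsynaptic scaffold and Dusp1 a phosphatase of MAP kinases. The peak at Junb measured 4897 bp at chr8:84973787-84978683, with 198 in the first and 353 in the second column, and covered the finishes of Junb and Prdx2. Its joined summit stood 2353 bp from the peak's lower edge, but its replicate summits only 794 and 674 bp. At Nr4a3 the peak measured 4338 bp at chr4:48044425-48048762, with 165 and 133, and covered the start. At Gadd45g it measured 4051 bp at chr13:51845171-51849221, with 302 and 728, and covered the whole gene. Those at Jund (3403 bp, 269 and 308) and Homer1 (2940 bp, 72.3 and 87.7) were narrower, and that at Dusp1 measured 2672 bp. Broad peaks also covered an end of Egr1 and Egr4, whose joined summits lay farther off, which brings the members with an end inside a broad peak to 8. The promoters of Nr4a3 and Gadd45g printed above hold 18 and 16 CpG pairs in 250 bases.

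Transcription factors of cortical projection neurons had a broad end peak in 3 of 30 genes (10.0%). Cux1, a factor of upper cortical layers, had 4087 bp with 382 in the first and 439 in the second column and summits 9 bp apart. Sox11, a factor of immature neurons, had 3208 bp with 519 and 522. Nfix shared the peak of 2500 bp at the threshold. Broad peaks also covered an end of Bcl11b and Neurog2. Factors of other lineages had 2 of 29 (6.90%): Myod1, the muscle regulator, with 3258 bp, and Tbx3 with 2689 bp. Synaptic genes had 2 of 28 (7.14%), the vesicle protein gene Vamp2 with 2608 bp and the scaffold gene Shank2 with 2545 bp, and Hox genes 2 of 39, Hoxa5 and Hoxa6, which share a peak of 2620 bp. Ribosomal protein genes had 3 of 79 (3.80%), Rpl22, Rpl14 and Rpl38, and housekeeping genes 1 of 28, the glycolytic Pkm. The counts behind all of the shares in this paragraph rest on 1 to 3 genes.

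Several lists had no broad peak at an end. With 1.87% of all protein-coding genes having one, a count of 0 in a list of 10 to 67 genes is near the background and no result about the list. None of the 57 clustered protocadherin genes had a broad one, while 38 had a peak of any width. The count of broad peaks was also 0 for 37 imprinted genes (14 with any peak), 25 neuronal cytoskeleton genes (11), 38 proteasome genes (12), 26 splicing and RNA genes (8), 20 genes of chromatin topology (8) and 67 histone genes (11). Broad peaks with the joined summit elsewhere covered an end of Basp1 and Mapt, of the cytoskeleton list, and of the histone gene H3f3a. With a threshold of 2000 bp, 3 genes of chromatin topology, 2 imprinted and 2 cytoskeleton genes had an end peak that wide. Zfp genes had 1 of 360, Zfp574, while 100 had a peak of any width. Marker genes of astrocytes (0 of 10), oligodendrocytes (0 of 10), microglia (0 of 11) and inhibitory neurons (0 of 17) had none. A peak of any width was at an end of 5, 5, 1 and 3 of these genes. Olfactory (0 of 1100) and vomeronasal receptor genes (0 of 352) had none, with 7 and 1 genes with a peak of any width. Of 17 small nucleolar RNA host genes, Snhg8 had a broad peak, of 3217 bp, and 13 had a peak of any width. Over the 13 lists written out by symbol, 14 of 306 genes (4.58%) had a broad end peak.

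**Figure D4:**
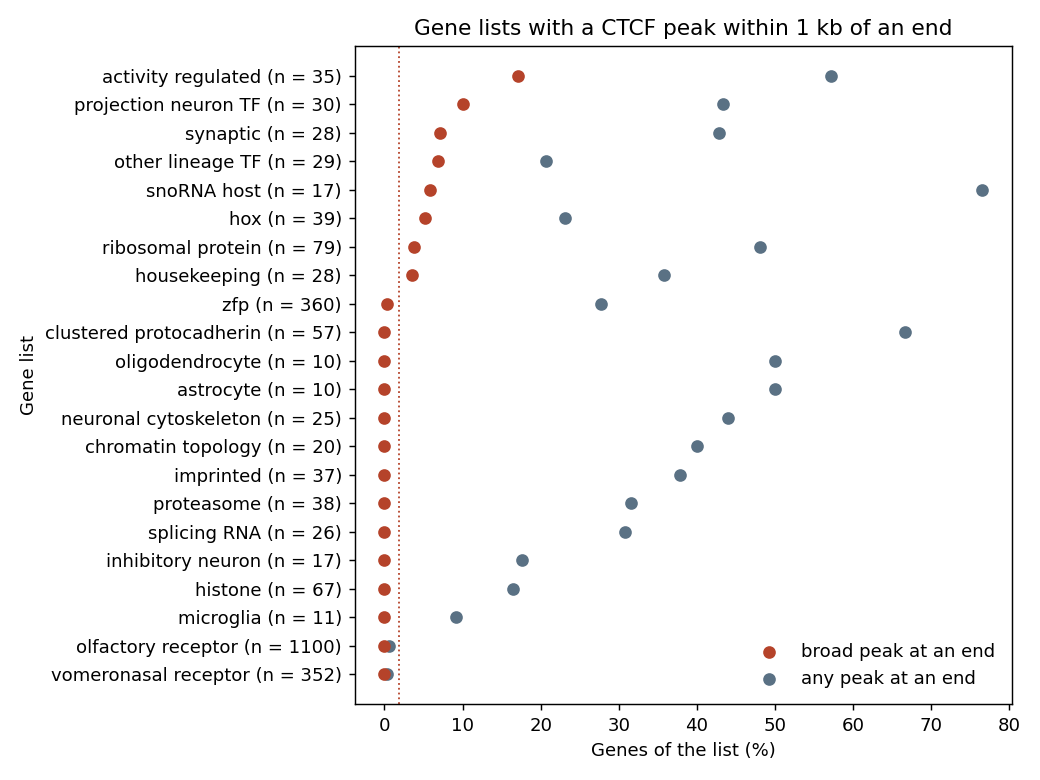
Each row is a gene list with its number of autosomal members, and the points give the share of members (%) with a broad peak (red) or a peak of any width (blue) whose joined summit is within 1 kb of an end. The dotted line is the share of all protein-coding genes with a broad end peak, 1.87%. Activity-regulated genes stand at 17.1% and clustered protocadherin genes at 0% for broad peaks.

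MicroRNA genes had a broad peak near an end in 10 of 1103 (0.907%), against 0.474% of all genes that are not protein-coding, and 99 had a peak of any width. Of 919 hairpins in the RefSeq sequence table, 13 (1.41%) were touched by a broad peak and 72 (7.83%) by a narrower one. These counts are not a like comparison, since broad peaks made up 3.14% of autosomal peaks and 7.76% of the sequence under them. The 18 mature sequences of hairpins touched by a broad peak had 18 different seeds, so none shared a seed with another. Below is a mature sequence from each of 3 of these hairpins, with the seed, bases 2 to 8, in capitals. The first is the 3p arm of Mir92b, whose seed is that of the miR-92 family. Next is the 5p arm of Mir375, a gene known from endocrine cells, for which no other arm was matched here. The last is from Mir5130, which shares its peak with Kctd12. All 3 were chosen after their values were seen.
miR-92b-3p (hairpin chr3:89227116-89227198, minus strand): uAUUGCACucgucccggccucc
miR-375-5p (hairpin chr1:74900658-74900721, minus strand): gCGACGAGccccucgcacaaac
miR-5130 (hairpin chr14:102982549-102982632, minus strand): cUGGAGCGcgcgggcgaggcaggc
The peak over Mir92b was the strongest of the 3, 2508 bp wide with 560 in the first and 516 in the second column. That over Mir375 had 31.7 and 153 over 2675 bp, and that over Mir5130 had 198 and 264 over 3322 bp. Mir124a-3, a copy of the neuronal microRNA miR-124, lay under a peak of 3731 bp with 172 and 462 and summits 13 bp apart.

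Promoters under broad peaks had more CpG pairs than promoters under no peak, and the CTCF core was not found in a larger share of them than of promoters under narrower peaks. Over windows of 300 bases, 250 before to 50 after each listed start, 444 windows of 380 genes lay under a broad peak and 3547 under a narrower one. Sequence under the rest of a peak was not read, so these shares do not give how often a whole peak holds the core. Among peaks with a single known start inside, the joined summit's distance from the start had quartiles of -539.25 and 829.5 bp in broad peaks. In narrower peaks the quartiles were -189 and 178.25 bp. Median GC content was 67.0% under broad peaks, 64.7% under narrower peaks and 54.3% under none, and the median number of CpG pairs was 27, 25 and 9. The core, CCA, any 2 bases, AG, any 2 bases, GGC on both strands, was found in 17 windows under broad peaks (3.83%, 2.25% to 6.06%), in 5.86% (5.11% to 6.69%) under narrower peaks, in 1.59% under none and in 2.39% of all. The longer form, with AG after the core, was found in 0.450%, 0.479%, 0.168% and 0.229% in the same order, and the shorter AGNNGGC (N is any base), which lies within both, in 81.1%, 80.9%, 59.8% and 64.0%. GC content moves with the shorter motif, and its part in these shares was not tested.

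Where the core was present in a promoter window, it lay a median of 82.5 bp from the joined summit in broad peaks (15 matches) and 29.5 bp in narrower peaks (201 matches). It was within 100 bp of that summit in 8 of the 15 (53.3%), against 69.2% in narrower peaks. From the replicate summits the medians were 398.5 bp (first) and 745.5 bp (second) in broad peaks, against 40.5 and 31.5 bp in narrower ones. At Bbc3, a cell death gene, the core stood 2.5 bp from the joined and 4.5 bp from the first summit and 646.5 bp from the second. At Adra2a, an adrenergic receptor gene, it stood 743.5 to 745.5 bp from all summits. Bbc3 and Adra2a were named after their values were seen.

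Broad peaks were unevenly spread over the chromosomes. They made up 116 of 2531 peaks on chromosome 11 (4.58%, 3.80% to 5.47%), 4.36% on chromosome 10 and 4.23% on chromosome 15, against 1.90% (1.23% to 2.79%) on chromosome 14, 1.96% on chromosome 13 and 2.03% on chromosome 6. Outside the autosomes, 2 of 729 peaks on chromosome X (0.274%) and 1 of 11 on chromosome Y reached 2500 bp.

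**Figure D5:**
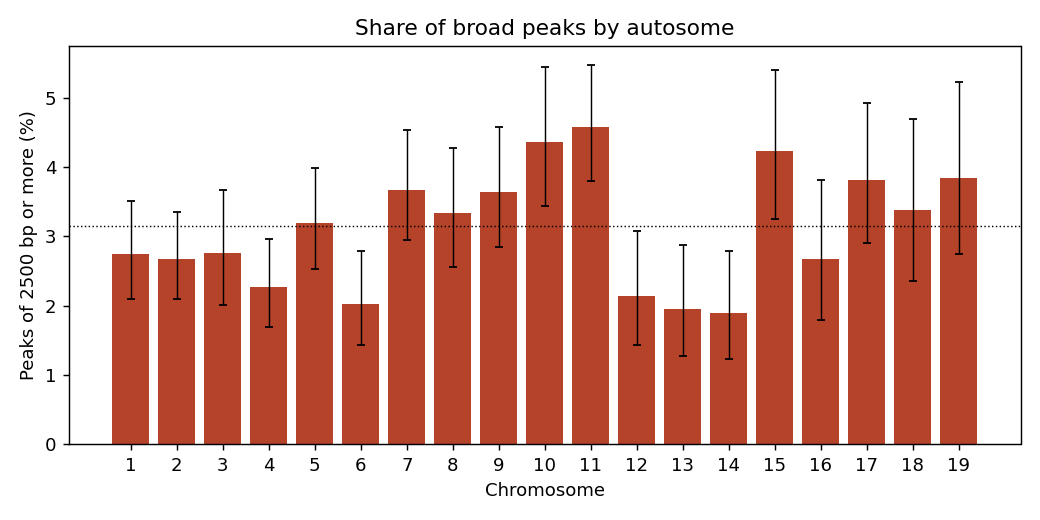
Bars give the share of peaks (%) of 2500 bp or more on each autosome, with exact 95% intervals, and the dotted line the share over all autosomes, 3.14%. Chromosome 11 is highest at 4.58% and chromosome 14 lowest at 1.90%.

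Measured from edge to edge, broad peaks lay closer to their neighbours than narrower peaks did. Such a gap depends on width, which chose the broad peaks, and the part of width in the difference was not tested. The median gap to the nearest other peak was 6928.5 bp (5879 to 7554 bp), against 11063 bp (10807 to 11305 bp), and 44.0% against 31.5% had another peak within 5 kb. With gaps of at most 50 kb, 166 broad peaks (16%) fell into 77 chains of 2 or more, of which 11 held at least 3. The longest chain had 4 broad peaks among 9 peaks over 101742 bp at chr10:81216690-81318431, at Atcay, Zfr2, Tjp3 and Pip5k1c. Another held 3 over 30881 bp of chromosome 11, with a pair at Hic1, a tumour suppressor repressor gene, and 1 at Rtn4rl1.

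A total of 25 protein-coding genes were overlapped by 2 or more broad peaks and 5 by 3. Any shared base counted, so a joined summit can lie outside the gene said here to carry the peak. Adgrb1, an adhesion receptor of synapses, carried peaks of 3817, 2781 and 2937 bp within 73270 bp, with second-column strengths of 346, 568 and 488. Rai1, a chromatin regulator, carried 3 in 94281 bp, 1 at its start (519 and 715), 1 inside (134 and 84.1) and 1 over its finish, which is shared with the finish of Srebf1 (205 and 546). Gse1, Slc39a11 (a zinc transporter) and Prkag2 (a subunit of AMP-activated kinase) were longer, from 243548 to 405350 bp, with 10 to 28 peaks each. Rbfox3, which encodes the neuronal marker NeuN, held 2 broad peaks of 4340 and 3283 bp among 16. Wnt7b, a Wnt ligand, had 2 peaks, both broad, of 3906 bp (272 and 486) and 2608 bp (43.3 and 36.1). Joint strengths of broad peaks overlapping the same gene were alike in some genes, as at Prss57 (971 and 1206) and Kazald1 (800.2 and 629). They were far apart in others, as at Wnt7b (757 and 79.4). The peaks of 971, 629 and 757 had their joined summit outside the gene named.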

How the data were processed

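CTCF immunoprecipitations (2) and inputs (2) were sequenced; the joint peak list made from both immunoprecipitations was the only data file. Tools named in the submitters' processing notes were MACS2, BWA, SAMtools, Trimmomatic and FastQC, and builds were GRCm38.p6 and mm10. Their versions, roles and thresholds were not found in the labels. The deposited list has 20 columns, without a header, in the layout of the IDR program for a pair of replicates. The deposited −log10 p of each replicate's peak is the authors' value and depends on library depth, which is unknown. The deposited joint score was their sum, to within 0.01, in all 33820 rows, and the deposited −log10 of the IDR is capped at 5. The list holds no input values, so background in the inputs could not be set beside the peaks.

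Peak width was end minus start. Each joined summit was classed as within 1 kb of an end of a protein-coding gene, elsewhere inside such a gene, at another gene, or intergenic, with the RefSeq gene table of GRCm38.p6. Strand and promoter sequence came from the RefSeq promoter table and were matched by symbol. A replicate summit was the replicate start plus its offset. Nothing was tested: the members were chosen by a measured value, and peaks of 1 list are not replicates. The labels call the immunoprecipitations biological replicates, and each peak carries 1 value per replicate column. The members, gene lists and named genes were chosen with earlier results of these data known. Named were the 15 widest peaks at gene ends, the 10 widest, the 5 strongest, the 5 with summits farthest apart, the 10 genes with most broad peaks, up to 5 members per list and peaks next to the threshold; other named genes are said to be so. Where 2 listed genes share a peak, both are named. Alternatives changed the width threshold, IDR, strength, replicate column, window and point of the peak, and motif. The classing was tested on simulated data, where 1000 of 1000 planted positions were recovered. Scripts ran in Python 3.11.15 with pandas 2.3.3 and numpy 2.4.6, intervals in scipy 1.17.1 and figures in matplotlib 3.10.9.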

Additional observations from a re-analysis of the deposited data

How the results depend on the processing

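Over 12 alternatives the share at gene ends was higher in broad than in narrower peaks by 8.02 to 33.8 percentage points, against 15.6 as reported. Of 176 recomputed values, 112 stayed within the error or 1.5 times of the reported value and 64 moved. Only the 12 differences in gene-end share could be counted as reversed, and 0 were. A width of 2000 bp or more gave 2695 peaks, 16.7% of the remaining peaks at gene ends, summit distances of 185 and 27 bp in broad and narrower peaks, and 27 gene list members. A width of 3000 bp or more gave 409 peaks, 29.6% at gene ends, a difference of 11.6 points, 46.0% inside genes, a summit distance of 384 bp and 7 list members. An IDR of at most 0.01 set the summit distance of narrower peaks at 26 bp, and joint strength above the median set it at 23 bp and their gene-end share at 17%. Width in 1 replicate column alone gave 705 to 797 peaks, 31.1% to 34.3% at gene ends and 14.5% to 19.8% between genes. A window of 500 bp gave 20.2% and 12.2% of broad and narrower peaks at gene ends, a difference of 8.02 points, 50.7% of broad peaks inside genes and 21.9% between genes. A window of 5 kb gave 66.9% and 37.1%, 29.8 points, 19.2%, 7.88% and 32 list members. Any base of the peak gave 48.2% and 14.4%, 33.8 points, 31.8% and 13.9%. The peak's centre gave 36.6% and 18.8 points. The first replicate summit, an alternative added after seeing the data, gave 30.3%. The longer motif was in 0.450% and the shorter in 81.1% of promoters under broad peaks. A wider window or a shorter motif catches more by construction, and any-base classing drops the window; the cause of the other shifts was not tested. No paired analysis was possible because the list holds no input values to pair with the immunoprecipitations, and its replicate columns carry no replicate number. Library depth is unknown, so how much of a peak's width or strength depth sets was not tested.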

Other observations

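Broad peaks between genes lay at varied distances from protein-coding genes. A peak of 5044 bp on chromosome 10 stood 26004 bp from P4ha1, with 115 in the first and 317 in the second column. One of 4898 bp on chromosome 18 stood 6436 bp from Txnl1, with 222 and 772. Another of 4777 bp on chromosome 9 stood 164 bp from Cnot10, with 682 and 805. A peak of 4746 bp on chromosome 12 reached into Bcl11b, a regulator of deep-layer cortical neurons, with its joined summit outside the gene and 200 and 410 in the columns. After the peak near Rbm34, these are the widest whose joined summit was intergenic, and they were named after their values were seen.

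Other chains of 3 broad peaks lay on chromosome 1 at chr1:74892514-74952291, with Cryba2, Cfap65 with Mir375 and Ihh (Indian hedgehog, a secreted signal), and at chr1:86499600-86534399 around Ptma. On chromosome 11 a chain held peaks at Hrob, Atxn7l3 and Ubtf (a ribosomal DNA transcription factor), and on chromosome 19 a chain of 54202 bp held peaks of 3800 to 4825 bp at Pdzd7 and Kazald1.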
